A study of Homo sapiens with 14 samples.

Results

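Stop codons are the 3 triplets at which a ribosome ends translation: UAA (ochre), UAG (amber) and UGA (opal). The annotated stop codon was taken from 1282 genes of K562 cells, an established human erythroleukemia line, with 1 transcript per gene. Each transcript was protein-coding, was listed in all 4 deposited profiles and had the same length as in GENCODE release 44, and where several transcripts of a gene met this, the one of highest mean RPKM was kept. The 1282 genes came from 20512 transcripts listed in any profile. At 1225 of these stop codons, the triplet and the base after it were scored in all 4 profiles, and the values below are over these 1225. The other 57 were not scored: 48 lay within the last 30 nt of the transcript, which carry no score, and 9 had no score in at least 1 profile. The scored members held 395 UAA, 239 UAG and 591 UGA stop codons.

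RNA was probed with NAI-N3 (icSHAPE), which acylates the 2′-hydroxyl of flexible nucleotides, and with NAz-N3 (icLASER), a light-activated probe that reports the solvent exposure of the C8 position of purines. For icSHAPE, the 14 libraries comprised 3 of cells treated with 100 mM NAI-N3 for 5 min (in vivo), 2 of RNA treated after isolation and refolding (in vitro) and 3 DMSO controls. For icLASER there were 2 libraries in vivo and 2 in vitro, exposed to UV light for 10 min after NAz-N3 was added (stock of 1 M), and 2 controls without UV. The labels name the control libraries of a reagent as input to both of its profiles, so the in vivo and in vitro scores share their controls. All libraries were made from polyadenylated RNA of the same unperturbed cell line, and none carried a change in the termination machinery. Of 10 genes that mark K562 cells, 9 were listed in all 4 profiles, among them GATA1 and both gamma globin genes HBG1 and HBG2, and TAL1 was not listed. Of 7 markers of lymphoid, epithelial and liver cells, EPCAM alone was listed. The authors pooled the libraries into 1 profile per reagent and condition, so no value below has a replicate check and no test was made. Each SD or SE is over stop codons, and neither covers the variation between libraries or the read depth behind a score, which is unknown. A score is the authors' enrichment of the reagent's library over its control at 1 nucleotide, from 0 to 1.

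When a stop codon enters the A site of the ribosome, it is read by a protein, the release factor eRF1, in place of a tRNA. eRF1 (ETF1) acts with the GTPase eRF3 (GSPT1) to release the peptide, and ABCE1 then splits the ribosome. In the mRNA channel the stop codon and the base after it are packed together by eRF1, and the identity of that base is known to change how well a stop codon is read. UGA is known as the leakiest stop codon, above all when a C follows, and UAA as the tightest. UGA followed by CUA is a known signal for readthrough, in which a tRNA decodes the stop codon and the protein is extended.

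The sequences below show how the members differ in stop codon and in the base after it, and the values of these genes are given further on. Each runs 5′ to 3′ from 12 nt before to 12 nt after the stop codon, which is in capitals, and was read from the GENCODE 44 transcript (GRCh38). All mark the border of the coding sequence and the 3′ UTR.
RPL41, chr12:56117522-56117524, plus strand: cagagguccaagUAAaccgcuagcuug
EIF5A, chr17:7311638-7311640, plus strand: gccauggcaaaaUAAcuggcucccagg
GSPT1, chr16:11873119-11873121, minus strand: ccagagaaagacUAAgcauuuucuuga
EEF2, chr19:3976152-3976154, minus strand: ggaacacgcgggUAGaugauuucuagc
RPL32, chr3:12836094-12836096, minus strand: gaagaaaaugagUAGgcagcucaugug
ETF1, chr5:138508305-138508307, minus strand: cuugaugacuacUAGguagucgacaug
HBG1, chr11:5249552-5249554, minus strand: ccagagguucuuUGAcagcuuuggcaa
RPL36, chr19:5691619-5691621, plus strand: gccaagaaagacUGAgccccuccccug
LDHB, chr12:21635542-21635544, minus strand: cuaaaagaccugUGAcuagugagcucu
MDH1, chr2:63606985-63606987, plus strand: cuuuccucugccUGAcuagacaaugau

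UGA made up 48.2% of the scored stop codons, UAA 32.2% and UAG 19.5% (95% Wilson intervals 45.5% to 51.0%, 29.7% to 34.9% and 17.4% to 21.8%, counting error only). Of 32423 occurrences of these triplets in the 3′ UTRs of the same transcripts, in any frame and more than 30 nt past the stop codon, 36.9% were UGA, 40.0% UAA and 23.1% UAG. The base after the stop codon was A in 33.1%, G in 30.5%, C in 19.0% and U in 17.3%, whereas after the 3′ UTR triplets it was A in 36.2%, U in 26.2%, G in 20.8% and C in 16.8%. G thus followed annotated stop codons more often than the same triplets elsewhere, and U less often, by more than the counting intervals. C was also more frequent and A less frequent. For these the 3′ UTR shares lay just outside the intervals, which were 16.9% to 21.3% for C and 30.6% to 35.8% for A. UGAG was the most frequent combination, with 208 members, and UAGU the least frequent, with 38.

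The scores of the triplet were uneven, and the middle nucleotide was the highest of the 3 in all 4 profiles. In icSHAPE in vivo the mean score was 0.154 at U, 0.292 at the middle nucleotide, 0.227 at the last and 0.178 at the base after (SD 0.212, 0.332, 0.304 and 0.270, n = 1225). In icSHAPE in vitro these means were 0.152, 0.203, 0.171 and 0.134. The icLASER in vivo means were 0.134, 0.346, 0.210 and 0.193, and in icLASER in vitro 0.113, 0.313, 0.164 and 0.137. A middle nucleotide with a score of at least 0.5, called reactive, was found at 280 stop codons (22.9%) in icSHAPE in vivo, against 12.6% of all 1763627 scored nucleotides of the member transcripts. In icSHAPE in vitro the count was 191 (15.6% against 11.7%), in icLASER in vivo 344 (28.1% against 11.7%) and in icLASER in vitro 302 (24.7% against 11.5%). At the U that opens the stop codon, 99 members were reactive in icSHAPE in vivo (8.08%) and 87 in icLASER in vivo (7.10%), both below the share of all nucleotides. All nucleotides include every base, whereas the middle nucleotide is always a purine and the first a U, so base is not matched here. In icLASER in vivo the middle nucleotide of the same triplets in 3′ UTRs was reactive in 39.4% before a pyrimidine and 10.7% before a purine. At stop codons these shares were 49.4% and 15.9%.

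At least 1 of the 3 nucleotides was reactive in 37.7% of members in icSHAPE in vivo, 30.5% in icSHAPE in vitro, 40.9% in icLASER in vivo and 33.8% in icLASER in vitro. At 3′ UTR triplets, weighted to the stop codons by triplet and base after, these shares were 23.8%, 22.7%, 36.4% and 33.4%. All 3 were reactive in 10, 17, 13 and 16 members in the same order (0.816%, 1.39%, 1.06% and 1.31%), against 0.321%, 0.598%, 0.722% and 0.801% of the weighted 3′ UTR triplets. A score of 0 at all 3 was found in 8.24% of members in icSHAPE in vivo and 21.1% in icSHAPE in vitro, 6.86% in icLASER in vivo and 6.61% in icLASER in vitro, and in 14.8%, 25.4%, 14.4% and 7.72% of the weighted 3′ UTR triplets.

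The 3 stop types had different profiles, and the reagents ordered them differently (the plot of scores by stop type and place). With NAI-N3 in vivo, the mean over the 3 nucleotides was 0.293 at UAA (SD 0.208, n = 395), 0.205 at UGA (SD 0.179, n = 591) and 0.159 at UAG (SD 0.155, n = 239). With NAz-N3 in vivo the order was different, with 0.277 at UGA (SD 0.184), 0.197 at UAG (SD 0.163) and 0.181 at UAA (SD 0.165). For icLASER the high place was the G of the triplet. The middle G of UGA had a mean score of 0.506 (SD 0.375) and was reactive in 269 of 591 members, and the last G of UAG had a mean score of 0.366 (SD 0.360) and was reactive in 73 of 239. For icSHAPE the highest place was the middle A of UAA, with a mean score of 0.388 (SD 0.365) and 129 of 395 members reactive. The middle A of UAG, which precedes a G, had a mean score of only 0.0958 in icSHAPE in vivo, and 7 of 239 members were reactive there. Of all scored nucleotides of the member transcripts, 12.6% were reactive in icSHAPE in vivo and 11.7% in icLASER in vivo. In icSHAPE in vitro UAA was again the highest, at 0.245, while UAG and UGA were both at 0.143. In icLASER in vitro UGA was again the highest, at 0.231, ahead of UAG at 0.184 and UAA at 0.153. The SE of these means was 0.00753, 0.0116 and 0.00790.

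Much of this pattern was also present at the same triplets in 3′ UTRs, which do not end the annotated reading frame. In icLASER in vivo, for example, the middle nucleotide of UGA scored 0.787 at stop codons and 0.709 at 3′ UTR triplets when a pyrimidine followed the triplet. It was reactive in 80.3% and 71.9% of these, and before a purine in 28.0% and 19.9%. In icSHAPE in vivo the middle A of UAA was reactive in 68.5% and 46.6% before a pyrimidine, and in 11.0% and 5.05% before a purine. Stop codons were therefore compared with 3′ UTR triplets of the same transcripts that had the same triplet and the same base after it, weighted to the stop codons. The stop codon exceeded these triplets by 0.0717 in icSHAPE in vivo (SE 0.00496, n = 1225 stop codons), by 0.0354 in icSHAPE in vitro (SE 0.00523) and by 0.0303 in icLASER in vivo (SE 0.00481). In icLASER in vitro the difference was 0.00261, within its SE of 0.00485. In these pooled values the excess was larger in vivo than in vitro with both reagents, but for icLASER the order turned within length classes and within transcripts. Of the 32423 triplets, 26533 lay in the 408 longest 3′ UTRs and only 934 in the 409 shortest. The SE of each class is over stop codons and leaves out the error of these triplets. Within classes of 3′ UTR length, with the same matching, the icLASER excess in vivo was -0.000703 for the 409 shortest (SE 0.00809), 0.00185 for the middle 408 (SE 0.00821) and 0.0171 for the 408 longest (SE 0.00859), and in vitro it was higher in each class, at 0.0164, 0.0271 and 0.0286. When each stop codon was set against the mean of all stop triplets in its own 3′ UTR, whatever their sequence, the icLASER difference was -0.00824 in vivo (SE 0.00609, 1079 transcripts) and 0.0307 in vitro. The icSHAPE excess was larger in vivo in these comparisons too, at 0.0622, 0.0671 and 0.106 in the length classes against 0.0485, 0.0416 and 0.0601 in vitro, and at 0.0661 and 0.0436 within transcripts. Pooled again over all transcripts, the excess was found at each of the 3 nucleotides in icSHAPE in vivo, with 0.0514 at U, 0.0884 in the middle and 0.0752 at the last. In icLASER in vivo it was 0.00846 at U (SE 0.00541), 0.0519 in the middle and 0.0306 at the last. At the base after the stop codon, the excess fell to 0.0253 in icSHAPE in vivo and 0.00160 in icLASER in vivo, and in icLASER in vitro that base was below its matched counterpart, at -0.0247 (SE 0.00625).

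Among the stop types, UAA had the largest excess over 3′ UTR triplets in icSHAPE, with 0.0962 in vivo (SE 0.0101) and 0.0596 in vitro (SE 0.0106). For UAG it was 0.0647 and 0.0280, and for UGA 0.0580 and 0.0221. UGA less UAA was thus -0.0382 in vivo (SE 0.0121) and -0.0375 in vitro (SE 0.0126), although among members with a mean RPKM of at least 20 this gap was -0.00167 and 7.7e-05. Against out-of-frame coding triplets the order was not the same: the difference in icSHAPE in vivo was -0.0263 for UAA, -0.00950 for UAG and -0.0199 for UGA (SE 0.0101, 0.00923 and 0.00664), and in vitro -0.0548, -0.0344 and -0.0517. For icLASER in vivo the order was different, with 0.0170 for UAA, 0.0378 for UAG and 0.0362 for UGA, and the 0.0192 by which UGA exceeded UAA was less than 2 SE (SE 0.0111). In icLASER in vitro UGA exceeded UAA by 0.00925 (SE 0.0108). The places of the icLASER excess in vivo were again the G of UGA, at 0.0845 (SE 0.0131), and the G of UAG, at 0.0823 (SE 0.0210).

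The size of the excess depended on which part of the transcript the stop codon was compared with, because matched triplets scored higher in the coding sequence than in the 3′ UTR (the plot of stop codons against triplets by distance). Against 32111 out-of-frame triplets of the coding sequence, matched in the same way, the stop codon was lower, with differences of -0.0199 in icSHAPE in vivo, -0.0494 in icSHAPE in vitro and -0.0634 in icLASER in vitro. It remained higher only in icLASER in vivo, at 0.0223. Against triplets 31 to 100 nt downstream, the excess was 0.0481 in icSHAPE in vivo, 0.0312 in icSHAPE in vitro, 0.0165 in icLASER in vivo and 0.00489 in icLASER in vitro. Against triplets 31 to 100 nt upstream it was 0.0157 in icSHAPE in vivo (SE 0.00492), 0.00271 in icLASER in vivo (SE 0.00479), -0.0168 in icSHAPE in vitro (SE 0.00523) and -0.00755 in icLASER in vitro (SE 0.00485). Only in icSHAPE in vivo, then, did the stop codon exceed its close neighbours on both sides by more than 2 SE. The reading frame of the 3′ UTR triplets made little difference, with an excess of 0.0714, 0.0718 and 0.0718 in icSHAPE in vivo for the 3 frames. In 633 members the first in-frame stop triplet downstream was scored and could be compared, without matching by triplet or base after. It had a mean score of 0.186 in icSHAPE in vivo, against 0.237 at the annotated stop codon of the same transcripts (difference 0.0509, SE 0.00997), and the icLASER in vivo means were 0.220 and 0.221.

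Scores differed with the base after the stop codon, at the last and at the middle nucleotide. In icSHAPE in vivo the last nucleotide had a mean score of 0.389 before A (n = 406), 0.287 before U (n = 212), 0.111 before C (n = 233) and 0.0904 before G (n = 374), with SDs of 0.376, 0.299, 0.169 and 0.156. The order A, U, C, G was the same in icSHAPE in vitro, with 0.270, 0.205, 0.108 and 0.0831. In icLASER in vivo the last nucleotide scored 0.285 before A, 0.241 before U, 0.174 before G and 0.111 before C. With A and G pooled as purines, and C and U as pyrimidines, the last nucleotide was higher before a purine by 0.0511 in icSHAPE in vivo (SE 0.0169), 0.0588 in icLASER in vivo (SE 0.0158), 0.0263 in icSHAPE in vitro (SE 0.0160) and 0.0271 in icLASER in vitro (SE 0.0146). Since A and G lay at opposite ends of the order in icSHAPE, this contrast averages unlike groups there, and in icSHAPE in vivo it was 0.0219 (SE 0.0115) with every length-matched transcript and 0.0238 (SE 0.0143) over stop codons scored in that profile alone. The last nucleotide of 3′ UTR triplets had the same order in icSHAPE in vivo, at 0.234 where A followed, 0.216 for U, 0.0806 for C and 0.0652 for G. By type, the last nucleotide of UAG before A reached 0.557 in icLASER in vivo (n = 78), against 0.163 before G (n = 63).

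At the middle nucleotide the split was between purines and pyrimidines, although the base after the stop codon is separated from it by 1 nucleotide. In icSHAPE in vivo its mean score was 0.510 when C followed the stop codon and 0.513 when U did, against 0.185 for A and 0.148 for G. Pyrimidine exceeded purine by 0.344 (SE 0.0197), with 445 and 780 members. The difference was 0.203 in icSHAPE in vitro, 0.277 in icLASER in vivo and 0.206 in icLASER in vitro, and each was over 9 times its SE. It was present in every stop type: in icSHAPE in vivo the middle nucleotide of UAA scored 0.673 before a pyrimidine and 0.215 before a purine, that of UGA 0.581 and 0.171, and that of UAG 0.126 and 0.0749. The middle G of UGA in icLASER in vivo scored 0.787 before a pyrimidine, with a median of 1.0, and 0.365 before a purine. The split was not particular to stop codons. In 3′ UTR triplets the same difference was 0.262 in icSHAPE in vivo and 0.263 in icLASER in vivo (the plot of the middle nucleotide by the class of the base after). Over all nucleotides of the coding sequences outside the window, a purine followed by a purine and a pyrimidine had a mean icSHAPE in vivo score of 0.369 (n = 113561), and a purine followed by 2 purines 0.130 (n = 170796). In 3′ UTRs these means were 0.263 and 0.0778, and in icLASER in vivo 0.345 and 0.138. This comparison of the middle nucleotide was made after the values were seen. Which nucleotide a score belongs to also matters here: had each score been assigned 1 nt downstream, the last nucleotide would carry these values, and its difference between purine and pyrimidine would be -0.345 in icSHAPE in vivo and -0.277 in icLASER in vivo. Whether it lies in the RNA, in the reagents or in the making of the libraries was not tested.

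Among the 12 combinations of stop type and next base, the mean over the triplet in icSHAPE in vivo ran from 0.0832 at UAGG (SD 0.0879, n = 63) and 0.0986 at UGAG (SD 0.0995, n = 208) to 0.358 at UAAC (SD 0.201, n = 66) and 0.362 at UAAU (SD 0.211, n = 83). In icLASER in vivo it ran from 0.104 at UAGG (SD 0.0998) to 0.339 at UGAU (SD 0.149, n = 91), with UGAC at 0.315 (SD 0.136, n = 107). UGAC, the context known for readthrough, was thus close to UGAU with both reagents, at 0.263 and 0.285 in icSHAPE in vivo (SE 0.0147 and 0.0204), and far from UGAG. Each of the 12 exceeded the same 4 bases in 3′ UTRs in icSHAPE in vivo, by 0.0183 at UAGG to 0.118 at UAGA. In icLASER in vivo 11 of the 12 did, and UAAU was lower, at -0.0168 (SE of its mean 0.0171).

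Across the 63 nt window, the scores on the coding side varied with codon position (the plot of scores around the stop codons). Over the 9 codons before the last, codon position 1 had the highest mean score in each profile, with 0.192, 0.157 and 0.166 at positions 1, 2 and 3 in icSHAPE in vivo and 0.195, 0.157 and 0.180 in icLASER in vivo. This rhythm followed the bases: the mean of all nucleotides with the same base context, taken as the nucleotide with 1 base before and 2 after it, in the coding sequences of the members was 0.222, 0.182 and 0.194 at the same positions in icSHAPE in vivo. In the last codon the mean icSHAPE in vivo score was 0.255, equal to its context mean of 0.256, and in icLASER in vivo it was 0.216 against 0.191. The stop codon exceeded the context mean of 3′ UTRs by 0.0726 in icSHAPE in vivo, and the 12 nt after it by 0.0371. In icSHAPE in vitro these values were 0.0410 and 0.0141, in icLASER in vivo 0.0312 and 0.0137, and in icLASER in vitro 0.00879 and 0.00105. On the coding side, the 15 nt from 30 to 16 nt before the stop codon were below their context mean, with differences of -0.0261 in icSHAPE in vivo, -0.0401 in icSHAPE in vitro and -0.0510 in icLASER in vitro. They were above it by 0.0127 in icLASER in vivo. At the base just before the stop codon, the mean icSHAPE in vivo score was 0.384 at A, 0.376 at U, 0.302 at G and 0.177 at C. In icLASER in vivo G had the highest mean, 0.499, followed by A with 0.197, U with 0.121 and C with 0.0696. The comparison with base contexts was added after the data had been examined.

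Over all scored members, stop codons scored higher in vivo than in vitro with both reagents. The mean difference over the triplet was 0.0490 for icSHAPE (SD 0.183, SE 0.00522) and 0.0338 for icLASER (SD 0.159, SE 0.00454), with 750 members higher and 397 lower for icSHAPE and 717 and 462 for icLASER. For icLASER this did not hold in every class of 3′ UTR length. The mean icLASER score was 0.247 in vivo and 0.161 in vitro for the 409 shortest, and 0.235 and 0.201 for the middle 408. For the 408 longest it was lower in vivo, at 0.209 against 0.228 in vitro. The icSHAPE mean was higher in vivo in each class. At 3′ UTR triplets weighted to the stop codons by triplet and base after, the mean differences were 0.0128 and 0.00605. Part of the icSHAPE difference ran through the whole profile: with the profiles brought to a common mean it was 0.0149 (SE 0.00532), while the icLASER value was 0.0323. The neighbourhood of the stop codon moved with it (the plot of differences around the stop codons). In 1123 members with all 63 nt scored, the mean icSHAPE difference was 0.0501 at the stop codon, 0.0428 from 30 to 4 nt before it and 0.0402 over the 30 nt after it, and over all nucleotides of the transcripts it was 0.0283. For icLASER the values were 0.0273, 0.0397 and 0.0371, and 0.00102 over all nucleotides. Taken within each member, the stop codon exceeded the 30 nt after it by 0.00983 for icSHAPE (SE 0.00536) and was below them for icLASER, at -0.00978 (SE 0.00436). The rise in vivo was therefore no larger at the stop codon than around it by more than 2 SE.

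Within the triplet the icSHAPE difference was uneven. It was 0.00177 at U, 0.0891 at the middle nucleotide and 0.0563 at the last. With a change called at a difference of at least 0.2, the middle nucleotide was higher in vivo in 309 members (25.2%) and lower in 116 (9.47%), against 16.1% and 11.6% of all nucleotides. The count was largest for UGA, where 183 of 591 were higher and 49 lower, and UAA had 108 of 395 (27.3%) higher. UAG had 18 of 239 (7.53%) higher and 21 lower at its middle A, but 54 (22.6%) higher and 19 lower at its last G. Over all 3′ UTR triplets, without weighting, the middle nucleotide was higher in 18.8%. For icLASER, the middle nucleotide was higher in vivo in 242 members (19.8%) and lower in 155 (12.7%), against 12.6% and 12.1% of all nucleotides. Over all 3′ UTR triplets the shares were 18.9% and 17.8%, and at out-of-frame coding triplets 14.3% and 27.1%. The base after the stop codon had the largest icLASER difference of the 4 places, 0.0553, with 213 members higher and 73 lower. By type, the mean difference over the triplet was 0.0622 at UGA, 0.0489 at UAA and 0.0166 at UAG for icSHAPE (SE 0.00682, 0.00983 and 0.0127), and 0.0453, 0.0288 and 0.0133 for icLASER (SE 0.00648, 0.00770 and 0.0110). UAG was the lowest of the 3 types with both reagents. The order was the same at 3′ UTR triplets, so it was not particular to stop codons. There the differences at UGA, UAA and UAG were 0.0323, 0.0162 and -0.0205 for icSHAPE, and 0.0141, 0.00819 and -0.0191 for icLASER.

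The 2 reagents marked partly the same stop codons. In vivo, the middle nucleotide was reactive to both in 164 members, which is 58.6% of the 280 reactive to NAI-N3 and 47.7% of the 344 reactive to NAz-N3. Of these 164, 122 were UGA, 41 were UAA and 1 was UAG. The 280 and 344 are out of 1225 members, and how much of the overlap comes from the triplet and the base after was not tested. Across the 1225 stop codons, the mean over the triplet had a Pearson r of 0.543 between icSHAPE in vivo and in vitro and of 0.605 between icLASER in vivo and in vitro. Between the reagents it was 0.327 in vivo and 0.469 in vitro. These are descriptions across genes, whose points share stop type, base after and RPKM, and the in vivo and in vitro profiles of a reagent share their controls.

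The stop types also differed in what surrounds them. The 30 nt after UAA had a mean GC content of 44.2%, against 51.3% after UAG and 52.8% after UGA, and the 30 nt before had means of 46.9%, 51.8% and 52.3%. The 3′ UTRs were of similar length, with medians of 346, 304 and 318 nt. A second stop codon directly after the annotated one was found in 22 UAA, 5 UAG and 23 UGA members, 4.08% of all, and an in-frame stop triplet within 10 codons in 33.5%. By RPKM, the 408 members with the lowest values (up to 13.4) exceeded their matched 3′ UTR triplets by 0.0858 in icSHAPE in vivo (SE 0.00896), and the 408 with the highest (from 26.6) by 0.0527 (SE 0.00827). The length classes of 3′ UTRs used above end at 204 nt for the shortest and start at 516 nt for the longest.

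Ribosomal protein and globin genes were among the most highly expressed members. The middle G of the UGAC stop codons of both gamma globin genes was reactive in all 4 profiles. HBG1, which codes for fetal gamma globin, scored 0.875 at the middle G in icSHAPE in vivo, 0.528 in icSHAPE in vitro, 1.0 in icLASER in vivo and 0.770 in icLASER in vitro. HBG2 scored 1.0, 0.510, 1.0 and 1.0 there, and since the 27 nt printed for HBG1 are identical in HBG2, reads can be split between them. By contrast RPL36, a protein of the large subunit with UGAG, scored 0.0130, 0.0, 0.0470 and 0.0.

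The UAG stop codon of EEF2, the elongation factor that moves the ribosome along the mRNA, was reactive at its last G before A, with 0.773 and 0.754 in icSHAPE in vivo and in vitro and 1.0 in both icLASER profiles. RPL32, with G after its UAG, had scores of 0.0 and 0.0120 at the last G in icSHAPE and 0.321 and 0.0900 in icLASER. Among UAA members, RPL41 was reactive at the last A in both icSHAPE profiles, with 1.0 in vivo and 0.580 in vitro, and scored 0.444 and 0.0310 there in icLASER. RPLP1, of the ribosomal stalk, was lower, with 0.276 and 0.0510 in icSHAPE, but had 0.803 in icLASER in vivo and 0.0 in vitro. RPS18, with UAA before G, and RPS19, with UAG before A, code for proteins of the small subunit. Their middle nucleotide was at 0.0680 or less in both icSHAPE profiles. Ribosomal protein genes have many processed pseudogenes, and reads from these could not be separated.

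Ribosomal protein genes as a group, chosen after their values were seen, held 66 members, of which 41 ended in UAA, 11 in UAG and 14 in UGA. For icLASER 54 of the 66 were higher in vivo and 11 lower, with a median difference of 0.102, against 717 and 462 of 1225 and a median of 0.0273 for all members. Their median icLASER score was 0.218 in vivo and 0.0632 in vitro, and for all members 0.194 and 0.149. For icSHAPE 39 of the 66 were higher and 25 lower, with a median difference of 0.0163, below the 0.0397 of all members. Among those named above, the 3′ UTR was 39 nt long in RPS19, 40 nt in RPLP1, 44 nt in RPS18, 46 nt in RPL36 and 47 nt in RPL32. It was 308 nt in RPL41. Over all 409 members with the shortest 3′ UTRs, the mean icLASER score was 0.247 in vivo and 0.161 in vitro. How far the icLASER difference of this group goes with 3′ UTR length was not tested.

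Of 13 genes known for stop codon readthrough, only LDHB and MDH1 were members, and both carried UGA followed by CUA, as printed above. Readthrough of these genes is known to yield forms of lactate and malate dehydrogenase with a peroxisomal targeting signal. The middle G of LDHB scored 1.0 in icSHAPE in vivo, 0.223 in icSHAPE in vitro and 1.0 in both icLASER profiles. In MDH1 it scored 0.322, 0.181, 1.0 and 1.0. Among all 591 UGA members, 5 had CUA after the stop codon (0.846%, Wilson interval 0.362% to 1.97%): APH1A, CHPT1, LDHB, MDH1 and TAF1D. In 3′ UTRs 135 of 11952 UGA triplets did (1.13%). The mean score of the middle G over the 5 was 0.624 in icSHAPE in vivo, from 0.322 to 1.0, and 0.712 in icLASER in vivo, from 0.225 to 1.0. At the 135 triplets in 3′ UTRs, these means were 0.240 and 0.641. Over all 107 UGAC stop codons, which include these 5, the mean of the middle G in icSHAPE in vivo was 0.613, close to the 0.624 of the 5. At the 2058 UGAC triplets in 3′ UTRs it was 0.419. This motif was examined after the data were seen, and it had only 5 members.

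Of 25 genes of termination, recycling and nonsense-mediated decay, 9 were members, 3 of each stop type. Over the triplet, 7 of the 9 were higher in vivo for icSHAPE, with a median difference of 0.0780, and 6 for icLASER, with a median of 0.0527, against 750 and 717 of all 1225 members with medians of 0.0397 and 0.0273. ETF1, the gene of eRF1 itself, ends in UAG before G. Its middle and last nucleotides were low in vivo, at 0.0 and 0.117 in icSHAPE and 0.0 and 0.0610 in icLASER, while its U scored 0.627 and 0.718 in vivo against 0.0680 and 0.0320 in vitro. Since U is not a purine, its icLASER score cannot be read as the C8 exposure that NAz-N3 reports. GSPT1 ends in UAA before G, and its middle A scored 0.343 in icSHAPE in vivo, 0.300 in vitro, 0.162 in icLASER in vivo and 0.165 in vitro. ABCE1 was no member. EIF5A, whose protein promotes peptide bond formation and release, ends in UAA before C, and its middle A scored 1.0 in both icSHAPE profiles, 0.812 in icLASER in vivo and 0.358 in vitro. TRMT112, the partner of the methyltransferase that modifies eRF1, ends in UGA before U, and its middle G scored 0.227 and 0.175 in icSHAPE and 1.0 in both icLASER profiles. PABPC1, the poly(A)-binding protein, scored 0.755 at its middle A in icSHAPE in vivo and 0.0 in vitro. In icLASER the order was the other way, with 0.0 in vivo and 0.312 in vitro.

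In selenoprotein mRNAs, UGA inside the reading frame is read as selenocysteine, so that the same triplet has a different fate. Of 4 selenoprotein genes in the profiles, GPX4, SELENOF and SELENOH were scored at their stop codons, which were UAG, UGA and UAG. In SELENOH the stop codon UAG before G was at 0.0 at all 3 nucleotides in icSHAPE in vivo, icSHAPE in vitro and icLASER in vivo. Its selenocysteine UGA before C, at nucleotide 44 of the same transcript, scored 0.892 at the middle G in icSHAPE in vivo, 0.938 in icSHAPE in vitro and 1.0 in both icLASER profiles. These codons differ in triplet and base after, so their scores cannot be compared by fate. Over all scored stop codons, the middle nucleotide in icSHAPE in vivo had a mean of 0.0195 at UAGG (n = 63) and 0.613 at UGAC (n = 107). In GPX4, a glutathione peroxidase, GENCODE 44 marks 3 such codons in the member transcript, and whether all 3 code for selenocysteine was not checked here. The middle G of UGA before G, at nucleotide 253, scored 0.0510, 0.0170, 0.0630 and 0.229 in the same order, that of UGA before A, at nucleotide 541, scored 0.0920, 0.352, 0.212 and 0.388, and that of UGA before U, at nucleotide 574, scored 1.0 in all 4 profiles. The UGA at nucleotide 574 lies directly before the UAG stop codon of this transcript, and the U after it opens that stop codon. In SELENOF the middle G of the selenocysteine UGA before A scored 0.408 in icSHAPE in vivo and 0.0 in the other profiles.

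Single members moved far between the conditions in both directions, and these were picked by that difference among members of mean RPKM of at least 20, over the triplet and the base after. For icSHAPE the lowest were KDELR1 at -0.641, ZC3H15 at -0.550 and VAPA at -0.50. In KDELR1, a receptor that returns proteins to the endoplasmic reticulum, the 3 nucleotides of UAG scored 1.0, 1.0 and 0.764 in vitro and 0.284, 0.245 and 0.149 in vivo. The highest were TOP2A at 0.683, CBX3 at 0.535 and CHCHD1 at 0.50. TOP2A, a DNA topoisomerase, was at 0.0 at all 4 places in icSHAPE in vitro and at 0.331, 0.422, 0.978 and 1.0 in vivo. For icLASER the lowest were CHCHD1 at -0.423, CD53 at -0.315 and PCLAF at -0.313, and the highest were RPS24 at 0.765, RPN2 at 0.686 and GATA1 at 0.592. CHCHD1 was thus picked at opposite ends for the 2 reagents. GATA1, the erythroid transcription factor, scored 0.788, 1.0 and 1.0 over its UGA in icLASER in vivo and 0.119, 0.226 and 0.144 in vitro. The first value of each belongs to U, which is not a purine. In RPS24 the icSHAPE difference had the other sign, at -0.385. Without replicates, how far such single values would repeat is unknown.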

How the data were processed

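Per the labels and methods, the authors trimmed reads with Trimmomatic, aligned them with Bowtie2 to the Ensembl release 88 transcriptome (GRCh38) and ran the icSHAPE pipeline without the minimum coverage of its last filter. The deposited RPKM value is 1 per transcript and profile. The deposited score at each nucleotide is the authors' enrichment over the control, from 0 to 1. Read counts behind the scores are not used here, so depth is unknown.

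Means, SDs and SEs were computed with Python 3.11.15, numpy 2.4.6 and scipy 1.17.1, and plots were drawn with matplotlib 3.10.9. Sequences and stop codons came from GENCODE 44, a later annotation than the authors', by transcript identifier and equal length: of 5749 protein-coding transcripts in all 4 profiles, 3419 had equal length and 2721 of these an annotated stop codon. The mean RPKM of the scored members ran from 6.45 to 2520. Coordinates are 1-based. Matched differences weight 3′ UTR triplets to the stop codons by triplet and base after, and their SE leaves out the error of the triplets. No p-value was computed. The functions were tested on simulated scores with planted differences.

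The members and lists were chosen with earlier results of these data known. Named genes are the 4 members of highest RPKM per stop type, the readthrough list, up to 6 of the termination list (ETF1, GSPT1 and ABCE1 first), the 3 lowest and 3 highest differences per reagent, and selenoprotein genes as a group. Ribosomal protein genes as a group, genes with UGA before CUA and single selenoprotein genes were chosen after their values were seen. Single libraries and polyadenylation sequencing were not analysed here. Some genes that the rule names are not reported here.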

Additional observations from a re-analysis of the deposited data

How the results depend on the processing

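Of 174 alternative values, 136 stayed within the 95% interval of the reported value over stop codons, 30 lay outside it and 8 turned the sign of a value whose interval leaves out 0. The cause was not tested unless the alternative's construction shows it. Against out-of-frame coding triplets, the excess of the stop codon was -0.0199 in icSHAPE in vivo, -0.0494 in icSHAPE in vitro and -0.0634 in icLASER in vitro. Within transcripts it was -0.00824 in icLASER in vivo and 0.0307 in vitro. Without weighting by the base after it was 0.0599 in icSHAPE in vivo, 0.0200 in icLASER in vivo and -0.00806 in icLASER in vitro. Against 3′ UTR triplets within 200 nt it was 0.0524 in icSHAPE in vivo and 0.0164 in icLASER in vivo. Against triplets 31 to 100 nt away on both sides, an alternative chosen after seeing the data, it was 0.0322 and 0.00765 in icSHAPE in vivo and in vitro and 0.00951 in icLASER in vivo. In icSHAPE in vivo it was also 0.0578 with every length-matched transcript, 0.0535 at a mean RPKM of at least 20 and 0.0842 with medians. UGA less UAA, in icSHAPE in vivo and in vitro, was -0.00167 and 7.7e-05 at a mean RPKM of at least 20, 0.00641 and 0.00312 against coding triplets, and -0.0767 and -0.0712 within transcripts, where icLASER in vitro gave -0.0212. In vivo less in vitro for icSHAPE was 0.0366 at a mean RPKM of at least 20, 0.0632 with scores assigned 1 nt upstream, 0.0149 with profiles at a common mean and 0.0286 as a share of reactive positions. For icLASER it was 0.0450 at that RPKM and 0.0452 with the upstream shift. At the last nucleotide, purine less pyrimidine was -0.345 and -0.203 for icSHAPE in vivo and in vitro and -0.277 and -0.207 for icLASER with scores assigned 1 nt downstream, which puts the middle nucleotide's score there. With the upstream shift it was 0.0133 in icSHAPE in vivo, 0.126 in icLASER in vivo and 0.0853 in icLASER in vitro, and with medians 0.00200 and -0.00650 in icSHAPE in vivo and in vitro. In icSHAPE in vivo it fell below 2 SE, at 0.0219, with every length-matched transcript. Leaving out single libraries was not possible, since each profile pools its libraries. No paired analysis was possible because the columns carry no replicate number.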
